A study of Mus musculus with 10 samples.

Results

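Lymph node CD4+CD25+ T cells of mice with homozygous loss of SHP-1 (me, 3 arrays) were compared with the same fraction from wild type mice (WT, 4 arrays). The 7 arrays were taken by their labelled genotype out of 10 in the study, and every gene on the array was compared. The remaining 3 arrays came from heterozygous mice (he). They entered the normalisation and the fits, where they shared in estimating the spread and the shift between the array sets given below. All mice were BALB/c and 17 to 19 days old, the cells were taken with a regulatory T cell isolation kit and were neither cultured nor treated, and RNA was amplified from 20 ng of total RNA before labelling of 10 ug. The labels give the me mice the motheaten phenotype, which is known as a systemic inflammatory disease, so genotype and disease cannot be told apart. The labels do not name the Ptpn6 allele or say whether animals were pooled. They call the arrays biological replicates, so the p-values measure the spread between these samples only.

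SHP-1, encoded by Ptpn6, is a cytosolic tyrosine phosphatase with SH2 domains that bind phosphorylated inhibitory motifs of surface receptors. It removes phosphate from kinases and receptors of the antigen receptor and cytokine pathways and so dampens them. Regulatory T cells (Treg cells) depend on the transcription factor Foxp3 and restrain other T cells, and T cells of motheaten mice are known for exaggerated signalling.

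The arrays fell into 2 sets by their correlation. Set A held WT 1, WT 2, me 1 and me 3 (with he 1), and set B held WT 3, WT 4 and me 2 (with he 2 and he 3). Pairs of arrays of the same set correlated at 0.970 to 0.996 across probe sets, and pairs from different sets at 0.854 to 0.944. The sets were read from these same values and no label names them as a batch. The array me 3 stood between the sets, with a mean correlation to set B of 0.929 against 0.880 to 0.882 for the rest of set A. Differences are therefore given with array set as a block and, for some genes, also within each set. Genes of the naming rule outside the lists, and genes past 0.5 in each set, were also checked with me 3 in set B. This check used the brightest probe set of each gene, and genes no longer separated there are named. The remaining list and stem genes were checked in this way for some genes only. The Gapdh 3' to 5' signal ratio, a sign of RNA quality, was 10.88, 9.92 and 13.83 in me and 7.84 to 9.53 in WT. It did not overlap between the genotypes (2-sided exact permutation p = 0.0571, the smallest that 3 against 4 arrays allow), it moves with every me minus WT difference below, and its part in them was not tested. By Xist signal WT 2, WT 4, me 1 and me 2 were male and the other arrays female.

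Markers of the labelled cell type were present. All 11 measured genes of a Treg and T cell list lay at or above the median level of all genes. The log2 values of Foxp3 were 10.60, 10.83, 11.30 and 11.40 in WT and 10.68, 11.58 and 11.15 in me, and those of Cd4, the co-receptor of helper T cells, were 9.23, 9.57, 9.38 and 9.44 in WT and 9.39, 9.62 and 9.61 in me. Both genes overlapped between the genotypes. Ctla4, an inhibitory receptor of Treg cells, lay at 11.46, 11.22, 10.18 and 11.09 in WT and 12.28, 11.30 and 11.42 in me, and its difference in the blocked fit was 0.58 ± 0.25 (log2, SE), from 0.37 without me 1 to 0.80 without me 3. Il2ra, the interleukin 2 receptor chain by which the cells were isolated, differed by -0.20 ± 0.10, Ikzf2 by 0.16 ± 0.10, Tnfrsf18 by -0.01 ± 0.06 and Foxp3 by 0.21 ± 0.11. None of these 6 genes passed the test. The direction of Ikzf2, Tnfrsf18 and Foxp3 depended on the setting: Ikzf2 was -0.09 without normalisation between arrays and -0.11 with arrays centred on their medians, and with me 3 counted in set B Foxp3 was -0.0038 and Tnfrsf18 was 0.02.

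Ptpn6 transcripts were lower on every me array than on every WT array. The brighter probe set read 9.55, 9.63, 9.83 and 9.81 in WT and 8.84, 9.08 and 9.05 in me, and the dimmer read 9.22, 9.08, 9.62 and 9.13 in WT and 8.05, 8.305 and 8.17 in me (log2). With array set as a block the differences were -0.69 ± 0.07 (adjusted p = 0.0559 in limma) and -1.06 ± 0.12 (adjusted p = 0.090), and within the sets they were -0.65 and -0.74 at the brighter, and -1.04 and -1.07 at the dimmer. The remaining signal is not evidence of intact transcript, because the position of the probes relative to the lesion was not mapped here. The 2-sided exact permutation p was 0.0571 at each probe set.

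Among 45037 probe sets tested, 3 passed an adjusted p of 0.05 with array set as a block (0.00666%), and all 3 were lower in me. They belonged to Socs2 and Tesc. Without the block 0 probe sets passed in limma (0%), with 280 at an unadjusted p under 0.05, against 1934 with the block, of which 741 were higher and 1193 lower in me. The difference between the sets in their me minus WT change passed for 0 probe sets (0%), with 746 at an unadjusted p under 0.05. The counts of 280, 1934 and 746 each lie under the share of 0.05 of 45037 probe sets that chance alone would give. In this and the following paragraphs a difference is the log2 difference of the blocked fit with its standard error. A gene that did not pass is given by its values and is not called changed.

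Socs2, a suppressor of cytokine signalling that cytokines acting through STAT5 induce, fell in me. The log2 values at its brighter called probe set were 10.14, 10.17, 9.26 and 9.17 in WT and 9.38, 8.37 and 9.07 in me. Within set A both me arrays lay below both WT arrays, and the single me array of set B lay below both WT arrays there, whereas across the sets the genotypes overlapped. The difference was -0.89 ± 0.08, a 1.85-fold lower level (adjusted p = 0.0249 in limma), with -0.93 within set A and -0.84 within set B. The dimmer called probe set differed by -0.81 ± 0.06 (adjusted p = 0.0164), with -0.75 within set A and -0.91 within set B. The he arrays stood at 9.96 in set A and at 9.06 and 9.23 in set B.

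Tesc also fell. Its product, tescalcin, binds calcium and inhibits the phosphatase calcineurin. Its log2 values were 11.49, 11.63, 11.27 and 11.17 in WT and 10.82, 10.61 and 10.89 in me. The genotypes did not overlap, with or without regard to the sets. The difference was -0.67 ± 0.05, a 1.59-fold lower level (adjusted p = 0.0164 in limma), with -0.70 within set A and -0.61 within set B, and its dimmer probe set differed by -0.32 ± 0.06. The he arrays stood at 11.38, 11.01 and 11.04.

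The direction at Socs2 and Tesc did not turn under any of the 15 settings tried for single genes, but the calls did not last. Leaving out each WT and me array in turn, the difference ran from -0.96 to -0.81 for Socs2 and from -0.71 to -0.63 for Tesc. In limma 0 probe sets were called once WT 2, WT 3 or he 1 was left out, and likewise once me 1 or me 3 was. Without WT 1 1 Socs2 probe set passed alone, without WT 4 only Hmgn3 did, and without me 2 only Jchain and a probe set with no single gene. Without he 2 there were 5 calls and without he 3 there were 3. The adjusted p over the settings ran from 0.0200 to 1 for Socs2 and from 0.0130 to 1 for Tesc.

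**Figure D1:**
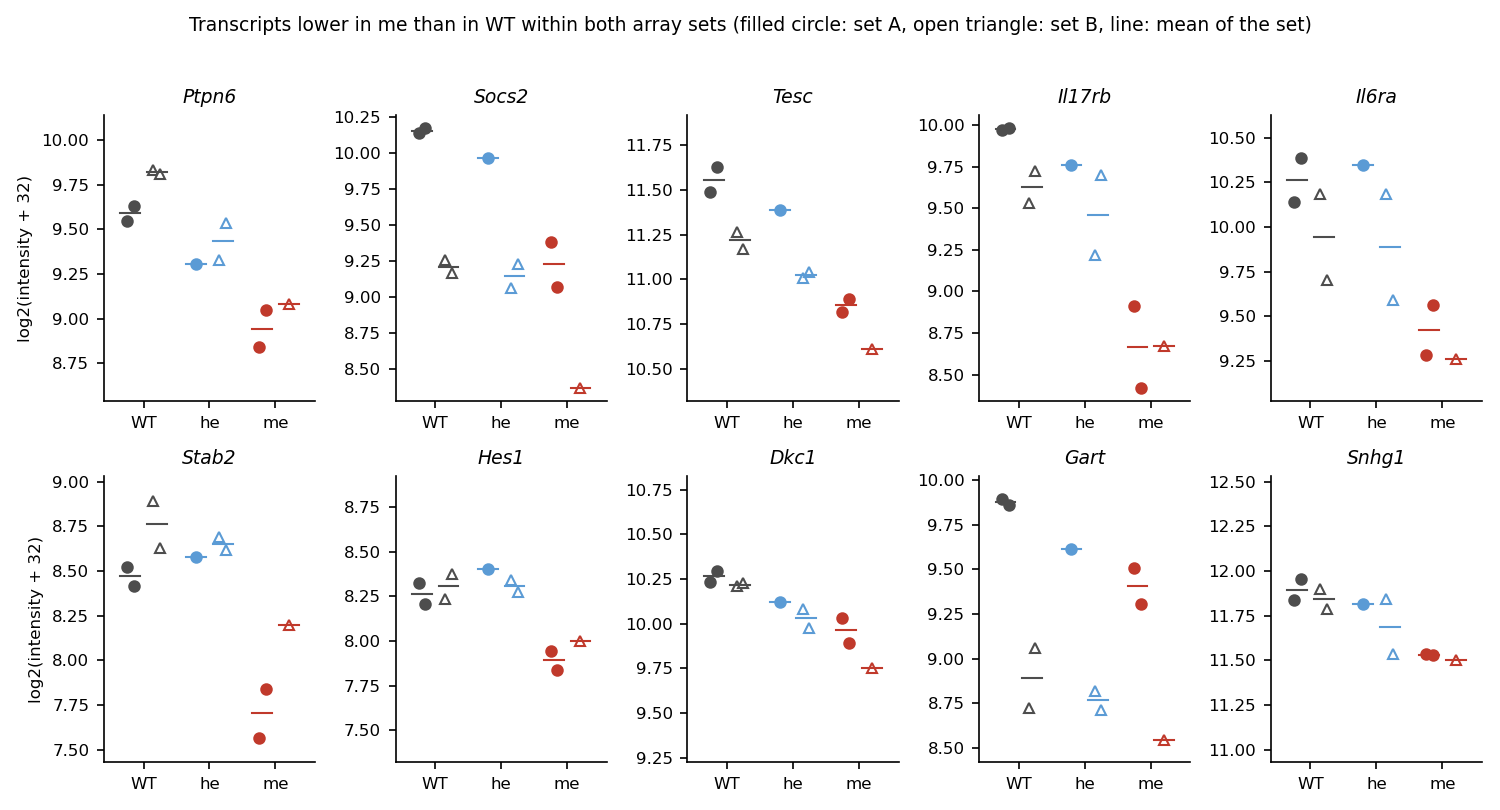
Log2(intensity + 32), quantile normalised, of 10 transcripts on each array, by genotype (WT, he, me); filled circles are set A, open triangles set B, and lines the mean of a genotype within a set. For Tesc the me arrays sit between 10.61 and 10.89, below all WT arrays at 11.17 to 11.63, and for Socs2 they sit below WT only within each set.

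To look past single calls, genes were counted as separated when every me array lay above, or below, every WT array of its own set in both sets. This is a count with no test. With so few arrays, chance alone also separates genes, at a share of the order of those below, so separation by itself is no mark of a difference. Of 18193 genes, 876 (4.82%) were separated with higher values in me and 1391 (7.65%) with lower values, so 38.6% of the separated genes were higher. That share was 23.9% with arrays centred on their medians, 44.2% without normalisation between arrays and 48.8% with me 3 counted in set B, so lower genes outnumbered higher ones under each of these settings by an amount that depended on the setting. Among the 9097 genes at or above the median level, 466 (5.12%) were higher and 647 (7.11%) lower. Few of these differences were large: 70 genes differed by over 0.5 and 26 by under -0.5, and 21 genes higher and 13 lower were separated with a difference of at least 0.5 in each set. With me 3 counted in set B, 29 of these 34 genes stayed separated in the same direction, and Gimap3, Gpr183, Klrb1b, Ncoa7 and Prox1 did not. Among the 45 separated genes that the naming rule takes outside the lists, 34 stayed separated with me 3 counted in set B, 41 without normalisation and 40 with median centring.

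**Figure D2:**
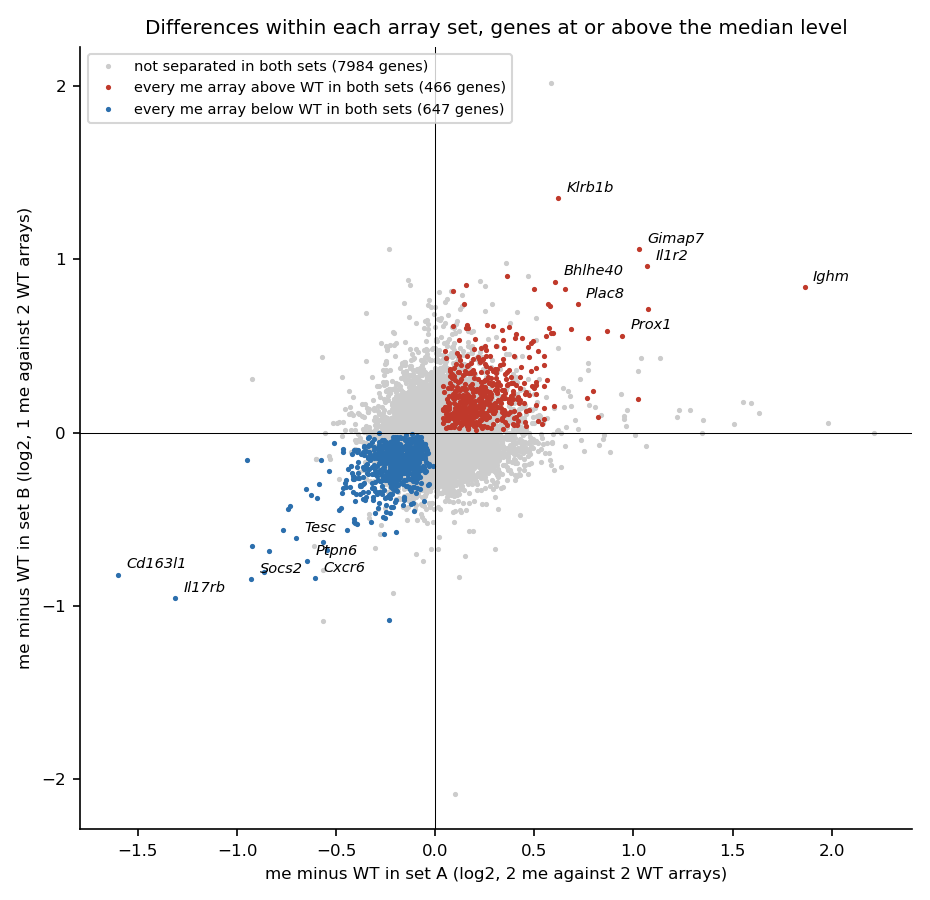
Each point is a gene at or above the median level, with its me minus WT difference in set A (x axis, log2) and in set B (y axis, log2); red and blue points are separated in both sets. The 466 red and 647 blue genes surround a mass near 0, and Gimap7, Il1r2, Klrb1b and Ighm lie far to the upper right and Il17rb and Cd163l1 to the lower left.

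Promoter sequences of 4 genes are shown so that they can be set beside the values. They come from RefSeq (GRCm38.p6), run from 250 bases before to 50 after a start that the RefSeq promoter table gives, which for Il1r2 and Oas1a lies inside the annotated gene, and were matched by symbol for 38 of the 48 genes that the naming rule takes outside the lists. Tesc was called lower, and Gimap7, Il1r2 and Oas1a were separated higher with differences over 0.5 in each set. Capitals mark the motifs TTCNNNGAA, which STAT proteins bind, GAAA followed after any 2 bases by GAAA, a core of interferon-responsive elements, and CACGTG, the E-box of MYC, searched on both strands, with overlapping matches merged.
Tesc, chr5:118027493-118027792, plus strand: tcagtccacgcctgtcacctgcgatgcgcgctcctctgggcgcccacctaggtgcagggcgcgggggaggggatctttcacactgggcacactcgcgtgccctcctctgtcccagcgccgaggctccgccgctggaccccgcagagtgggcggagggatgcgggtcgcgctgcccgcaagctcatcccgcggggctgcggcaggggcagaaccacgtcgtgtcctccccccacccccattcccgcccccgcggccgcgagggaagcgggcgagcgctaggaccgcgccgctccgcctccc
Gimap7, chr6:48718371-48718670, plus strand: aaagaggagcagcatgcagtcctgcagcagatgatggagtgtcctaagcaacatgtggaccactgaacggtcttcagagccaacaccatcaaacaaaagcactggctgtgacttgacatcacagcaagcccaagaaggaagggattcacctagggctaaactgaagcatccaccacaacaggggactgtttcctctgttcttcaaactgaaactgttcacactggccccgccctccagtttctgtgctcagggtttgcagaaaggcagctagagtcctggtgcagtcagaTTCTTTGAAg
Il1r2, chr1:40085843-40086142, plus strand: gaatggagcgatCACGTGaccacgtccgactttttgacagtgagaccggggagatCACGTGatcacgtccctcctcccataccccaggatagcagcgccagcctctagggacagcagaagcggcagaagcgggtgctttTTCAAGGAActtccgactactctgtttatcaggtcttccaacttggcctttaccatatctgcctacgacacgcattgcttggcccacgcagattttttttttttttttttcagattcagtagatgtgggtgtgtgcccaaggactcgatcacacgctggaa
Oas1a, chr5:120907476-120907775, minus strand: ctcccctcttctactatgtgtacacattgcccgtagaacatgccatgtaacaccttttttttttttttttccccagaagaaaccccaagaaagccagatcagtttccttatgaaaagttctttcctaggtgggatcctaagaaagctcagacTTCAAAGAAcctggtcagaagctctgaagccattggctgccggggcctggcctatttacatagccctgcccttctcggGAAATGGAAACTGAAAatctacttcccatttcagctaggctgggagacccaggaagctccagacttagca

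The Tesc window held none of these letters, that of Gimap7 held TTCNNNGAA, that of Il1r2 held TTCNNNGAA and CACGTG, and that of Oas1a held TTCNNNGAA and, at 2 overlapping places, the paired GAAA. A match describes letters only. TTCNNNGAA was present in 8.3% of all 32851 windows of the table, in 8.62% of separated higher genes and in 7.53% of separated lower genes, against 8.27% of all genes at or above the median level. The paired GAAA was present in 3.44% of all windows, in 6.01% of the higher genes (23 of 383) and in 2.51% of the lower (13 of 518), against 3.7%. CACGTG was present in 7.15% of all windows, in 11.7% of the higher genes and in 17.4% of the lower (90 of 518), against 12%. These shares were not tested, and a gene with several windows counted once if any held the motif.

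Il17rb, Il6ra, Stab2 and Cxcr6, which encode cell surface receptors, and Rnf128 had lower values in me. Il17rb, a subunit of the interleukin 25 receptor, had log2 values of 9.97, 9.98, 9.53 and 9.72 in WT and 8.91, 8.67 and 8.42 in me, with no overlap. Its difference was -1.17 ± 0.15, a 2.255-fold lower level (adjusted p = 0.1885 in limma). Il6ra, the interleukin 6 receptor chain that marks resting T cells, stood at 10.14, 10.39, 10.19 and 9.70 in WT and 9.29, 9.26 and 9.57 in me, again without overlap, and differed by -0.79 ± 0.17. A dimmer probe set of Il6ra differed by 0.05 ± 0.07 and was not separated. Stab2, a scavenger receptor, differed by -0.70 ± 0.10 and Cxcr6, the receptor of the chemokine CXCL16, by -0.71 ± 0.24. Rnf128, the ubiquitin ligase GRAIL linked to T cell unresponsiveness, differed by -0.61 ± 0.15. These 5 genes were separated in both sets. Cxcr6 lost its separation without normalisation between arrays and with median centring.

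Transcripts of gamma delta T cells were among the lower genes with the greatest differences. Cd163l1, which encodes a scavenger receptor found on gamma delta T cells, had log2 values of 10.32, 10.55, 9.78 and 9.35 in WT and 9.08, 8.75 and 8.59 in me. Its difference was -1.31 ± 0.28, with -1.60 within set A and -0.82 within set B. Trgv4, a variable segment of the gamma chain of the antigen receptor, differed by -0.84 ± 0.34, and Blk, a kinase of B cells and of some gamma delta T cells, by -0.59 ± 0.22. Of the 9 measured markers of gamma delta T and innate lymphoid cells 3 were separated lower (33.3%, against 7.65% of all genes) and 0 higher, and the list's median difference was -0.02. Its mean level was 9.30 to 9.52 over the WT arrays and 8.99 to 9.16 over the me arrays. In a bulk fraction, fewer cells of a type and less RNA per cell cannot be told apart.

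The other lower genes that met the naming rule included factors of transcription, import and protein turnover. Hes1, a transcription factor that Notch signals induce, had log2 values of 8.32, 8.21, 8.23 and 8.38 in WT and 7.94, 7.997 and 7.84 in me, a difference of -0.35 ± 0.06 with no overlap. Kpnb1, the importin beta of nuclear transport, differed by -0.37 ± 0.07, Tomm70a, a receptor of mitochondrial import, by -0.29 ± 0.05, Cmtm6, which stabilises the ligand PD-L1 at the surface, by -0.44 ± 0.07 and Chdh, a choline dehydrogenase, by -0.62 ± 0.11. Psmc4, an ATPase of the proteasome, differed by -0.32 ± 0.06, Ncbp2, of the cap-binding complex, by -0.24 ± 0.05 and the long noncoding RNA 1110038B12Rik by -0.35 ± 0.06. Cops7a, a subunit of the COP9 signalosome, differed by -0.23 ± 0.04 and Pianp by -0.85 ± 0.26. Cops7a and Pianp lie on chromosome 6 close to Ptpn6, with 15 and 16 protein-coding genes between in the RefSeq order. Klrb1b, with higher values in me, and Hnrnpf, with lower ones, lie further off, with 70 and 85 between. Distance to Ptpn6 was not counted for genes outside the naming rule. With me 3 counted in set B neither Kpnb1 nor Ncbp2 was separated. For 4 of these genes the only dimmer probe set was not separated. These probe sets differed by -0.07 ± 0.10 for Cmtm6, -0.09 ± 0.06 for Psmc4, -0.05 ± 0.16 for Cops7a and -0.02 ± 0.06 for Pianp. Kpnb1, Tomm70a and Ncbp2 had dimmer probe sets of both kinds, some separated lower and some not separated. Those closest to 0 differed by -0.02 ± 0.08 for Kpnb1, -0.06 ± 0.05 for Tomm70a and -0.01 ± 0.09 for Ncbp2.

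Genes of nucleotide synthesis were mostly lower by small differences. Gart, an enzyme of purine synthesis, had log2 values of 9.90, 9.86, 8.72 and 9.06 in WT and 9.51, 8.54 and 9.31 in me. Within each set its me arrays lay below its WT arrays, while across the sets they overlapped, and the difference was -0.42 ± 0.09. With me 3 counted in set B Gart is not separated, since me 3 at 9.31 lay above WT 3 and WT 4. Dhodh and Ctps, of pyrimidine synthesis, differed by -0.23 ± 0.06 and -0.13 ± 0.05, and for both me 3 likewise lay above WT 3 and WT 4. Of 23 measured genes of nucleotide and one-carbon synthesis 3 had a difference above 0, where 49.4% of all genes did, and 4 were separated lower (17.4%, against 7.65%) and 0 higher. The list's median was -0.08, from 0.02 in set A to -0.19 in set B, beside -0.0012 for all genes.

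Dkc1, the pseudouridine synthase dyskerin, stood at 10.23, 10.29, 10.21 and 10.23 in WT and 10.03, 9.75 and 9.89 in me. The genotypes did not overlap, and the difference was -0.37 ± 0.06, with values of the same sign at 3 probe sets. Snhg1, Snhg3 and Snhg12, long noncoding RNAs whose introns hold small nucleolar RNAs, differed by -0.36 ± 0.08, -0.44 ± 0.12 and -0.28 ± 0.09, and these were the 3 separated genes of 9 Snhg genes (33.3%, against 7.11% of genes at that level). Snhg1 stood at 11.84, 11.95, 11.90 and 11.79 in WT and at 11.54, 11.50 and 11.53 in me, with no overlap. For Ncl, nucleolin, the probe sets disagreed: 3 were separated lower, with differences of -0.46, -0.31 and -0.25, while the brightest differed by -0.12 ± 0.10. Mrpl13, of the mitochondrial ribosome, and Slc25a5, the mitochondrial ADP and ATP carrier, disagreed likewise. Each had 2 probe sets separated lower, and their brightest probe sets differed by -0.05 ± 0.09 and 0.06 ± 0.06. At all of these lower probe sets of Mrpl13 and Slc25a5, me 3 lay above WT 3. With me 3 counted in set B they are therefore not separated, and the same holds for the Ncl probe set at -0.31.

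Families were formed by symbol stem, the letters before the first digit, where at least 8 genes lay at or above the median level, which gave 137 stems. The lowest medians were those of Mcm (-0.15), Snhg (-0.13), Nop (-0.13), Rrp (-0.11), Naa (-0.10), Bcl (-0.10), Ndufa (-0.09), Mrps (-0.08), Ndufb (-0.08) and Trmt (-0.08). These stems cover DNA helicase subunits, nucleolar RNA hosts, nucleolar and ribosomal RNA processing proteins, N-terminal acetylation, the BCL group, complex I, the small mitochondrial ribosomal subunit and transfer RNA methylation. Their medians stayed below 0 without normalisation and with median centring. Both settings also lowered other bright transcripts, such as Slc25a5 to -0.25 and -0.27, so a sign that stays below 0 there says little. The median of Bcl was -0.11 within set A and 0.07 within set B. Mcm4, a subunit of the replicative helicase, differed by -0.26 ± 0.06 and was the only separated gene of its 9, which include Mcm3ap, no helicase subunit. Nop58 and Nop16 differed by -0.29 ± 0.11 and -0.17 ± 0.07, and neither was separated. Nop58 ran from -0.42 without me 1 to -0.19 without me 2. Of 28 Mrps genes 5 were separated lower (17.9%, against 7.11% of genes at that level) and 0 higher, with Mrps22 at -0.30 ± 0.08 and Mrps24 at -0.25 ± 0.08. Of 11 Ndufb genes 3 were separated lower (27.3%), namely Ndufb6 at -0.27 ± 0.09, Ndufb2 at -0.15 ± 0.07 and Ndufb5 at -0.13 ± 0.07. Ndufb2 was -0.10 without me 1 and Ndufb5 was -0.076 without me 3 and -0.20 without me 2.

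Gimap, the family of GTPases of immunity-associated proteins that act in lymphocyte survival, had the highest median of the 137 stems. It was 0.45, with 0.35 within set A and 0.60 within set B, and the next highest, Cyp, was 0.16, with 0.25 within set A, -0.05 within set B and -0.02 with no block. All 8 genes had a difference above 0 and 4 were separated higher (50%, against 5.12% of genes at that level). Their order was Gimap7, Gimap4, Gimap3, Gimap6, Gimap5, Gimap1, Gimap8 and Gimap9, from 1.05 ± 0.14 through 0.72 ± 0.35, 0.65 ± 0.15, 0.61 ± 0.30, 0.29 ± 0.13, 0.21 ± 0.14 and 0.13 ± 0.26 to 0.06 ± 0.23. Gimap7 had log2 values of 9.61, 9.41, 8.99 and 8.95 in WT and 10.37, 10.03 and 10.70 in me. It had no overlap, a 2.07-fold higher level and an adjusted p of 0.2565 in limma. The 8 genes are neighbours on chromosome 6 with no other protein-coding gene between them in the RefSeq order. The family median was 0.37 without normalisation and 0.35 with median centring, where Gimap4 and Gimap6 were no longer separated. With me 3 counted in set B Gimap3 was not separated, and Gimap5 was 0.11 without me 2. The mean level of the 8 genes overlapped, at 9.75 to 10.41 over the WT arrays and 10.26 to 10.73 over the me arrays.

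Further stems with high medians were Casp (0.14), Prdm (0.13), Adam (0.13), Myo (0.13), Pde (0.11), Acot (0.10), Csnk (0.08) and Anapc (0.08). With median centring the medians of Acot, Csnk and Anapc fell below 0, to -0.0049, -0.05 and -0.02, and without normalisation those of Csnk and Anapc did, to -0.03 and -0.00046. Casp4, the caspase that senses cytosolic lipopolysaccharide, stood at 8.67, 8.67, 7.87 and 7.92 in WT and at 9.10, 8.44 and 9.05 in me. Its me arrays lay above the WT arrays of their set, and the difference was 0.46 ± 0.06 (adjusted p = 0.1885 in limma). Casp1, which matures interleukin 1 beta, differed by 0.35 ± 0.12, or 0.21 without me 2, and was not separated. The Casp median was 0.21 within set A, 0.06 within set B and 0.06 with no block. Myo1e and Myo1f, single-headed myosins, differed by 0.27 ± 0.08 and 0.25 ± 0.10. Adam19, a membrane protease, differed by 0.24 ± 0.05 and Pde8a, a cyclic AMP phosphodiesterase, by 0.26 ± 0.11, and all 4 were separated. Separated higher were 3 of 10 Myo (30%), 2 of 10 Pde (20%), 1 of 9 Adam (11.1%) and 1 of 8 Casp genes (12.5%), against 5.12%. Separated lower were 1 Pde gene (10%, against 7.11%) and 0 of Myo, Adam and Casp. Myo1f was 0.13 without me 2.

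**Figure D3:**
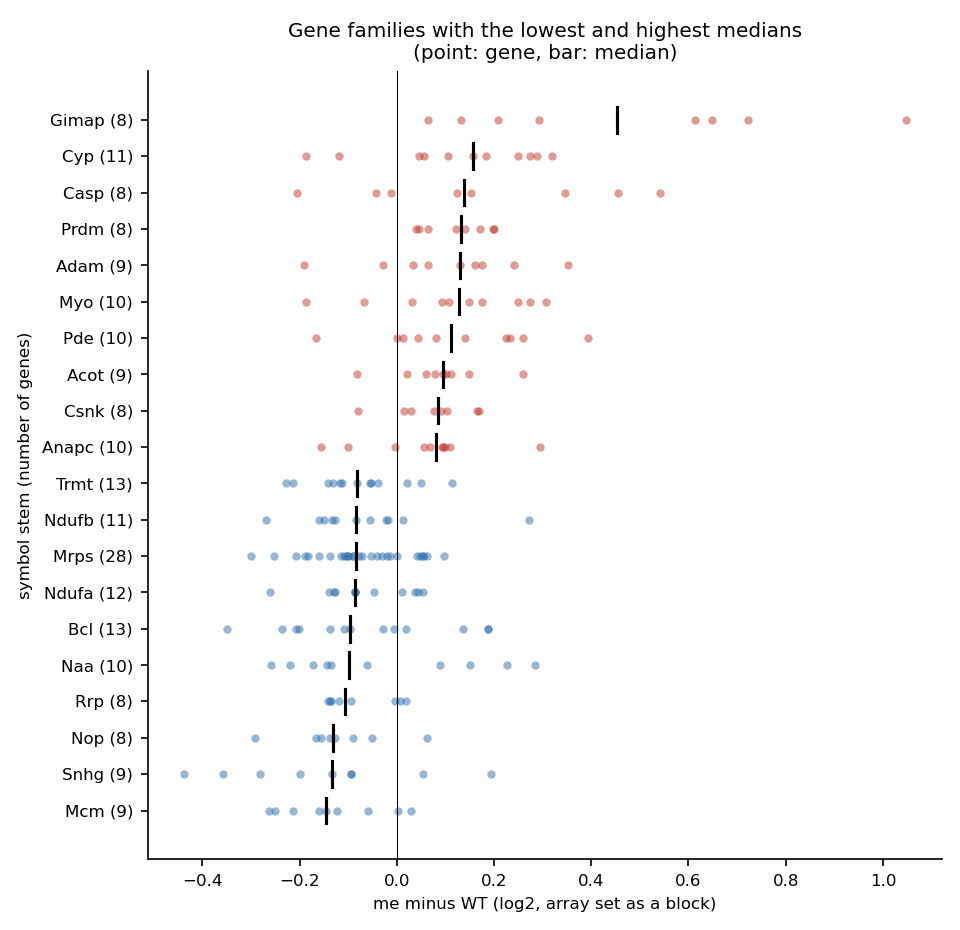
Each point is the me minus WT difference of a gene (x axis, log2, array set as a block) in the 20 symbol stems with the lowest (blue) and highest (red) medians, drawn as bars; the number of genes is in parentheses. The 8 Gimap genes all lie right of 0 around a median of 0.45, while the medians of the other stems lie between -0.15 and 0.16.

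Il1r2, Bhlhe40, Fkbp5, Hmgn3 and Prkcb had higher values in me. Il1r2, the decoy receptor of interleukin 1 that Treg cells carry on activation, had log2 values of 8.93, 9.10, 9.31 and 9.91 in WT and 9.92, 10.57 and 10.24 in me. Its lowest me array lay just above its highest WT array, and the difference was 1.02 ± 0.14, a 2.03-fold higher level (adjusted p = 0.3348 in limma), with 1.07 within set A and 0.96 within set B. Bhlhe40, a basic helix-loop-helix repressor that T cells induce on activation, stood at 10.20, 10.47, 10.15 and 10.55 in WT and 10.96, 11.23 and 10.91 in me, a difference of 0.71 ± 0.11 with no overlap. Fkbp5, a co-chaperone that glucocorticoids induce, stood at 9.50, 9.58, 9.73 and 9.81 in WT and 9.93, 10.26 and 9.85 in me, again with no overlap, and differed by 0.40 ± 0.06. Hmgn3, a nucleosome-binding protein, differed by 0.68 ± 0.11 and the kinase Prkcb by 0.58 ± 0.22. Fkbp5 lost its separation without normalisation between arrays and with median centring. Of its dimmer probe sets 1 was separated higher, at 0.20 ± 0.09, and 1 differed by -0.03 ± 0.04 and was not separated.

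Gpr183, the oxysterol receptor that guides lymphocytes in lymphoid tissue, stood at 9.38, 9.31, 10.70 and 10.37 in WT and at 9.92, 11.11 and 9.96 in me. It was higher in me within each set, by 0.59 and 0.57, although its level differed more between the sets than between the genotypes. Gpr18, another receptor of this class, differed by 0.40 ± 0.11, whereas Rgs16, which shortens such receptors' signals, differed by -0.31 ± 0.08. Klrb1b, an inhibitory lectin of natural killer cells, differed by 0.91 ± 0.15, with 0.62 within set A and 1.35 within set B. With me 3 counted in set B neither Gpr183 nor Klrb1b was separated. Outside the naming rule, and chosen after their values were seen, Klrg1, a receptor of terminally differentiated T cells, Cdca3, Nrn1 and Ncoa7 also exceeded 0.5 in each set, with differences of 0.55 ± 0.24, 0.59 ± 0.20, 0.61 ± 0.15 and 0.63 ± 0.28, and Pde5a lay under -0.5 in each set, with -0.54 ± 0.22. Klrg1 was not separated without normalisation or with median centring, and Ncoa7 was not with median centring or with me 3 counted in set B.

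Cst7, the protease inhibitor cystatin F, differed by 0.51 ± 0.10, Plin2, a coat protein of lipid droplets, by 0.46 ± 0.09, Slc17a5, the lysosomal sialic acid carrier, by 0.28 ± 0.05, Jade2 by 0.47 ± 0.09 and Birc3, an inhibitor of apoptosis, by 0.28 ± 0.07. Plac8 differed by 0.71 ± 0.24. The probe sets of Jade2 disagreed, since its dimmer one was separated lower, at -0.04 ± 0.06. With me 3 counted in set B Slc17a5, Jade2 and Birc3 were not separated. Birc3 also lost its separation without normalisation, and Birc3 and Plin2 did with median centring. Of 28 lysosome and autophagy genes 5 were separated higher (17.9%, against 4.82% of all genes) and 0 lower, among them Sqstm1, the autophagy receptor p62, at 0.18 ± 0.06 and Ctsd, cathepsin D, at 0.24 ± 0.09, or 0.12 without me 2. The median of that list was 0.04 and turned to -0.03 with median centring and to -0.0066 without normalisation. Of 16 annexins and S100 proteins 5 were separated higher (31.2%, against the same 4.82%) and 0 lower, with a median of 0.10. Among them Anxa1, a mediator of glucocorticoid action, differed by 0.24 ± 0.08. Among 32 cathepsins, granzymes and protease inhibitors 5 were separated higher (15.6%) and 0 lower, with a median of 0.10 that was -0.0088 with median centring.

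The interferon-induced genes Oas1a and Ifit1 met the naming rule, while the stems Ifi (9 genes) and Irf (11 genes) had medians of -0.04 and -0.01. In Ifi 1 gene was separated higher and 1 lower (11.1% each, against 5.12% and 7.11% of genes at that level). In Irf 0 were higher and 1 was lower (9.09%). Oas1a, which makes the activator of RNase L, had log2 values of 8.12, 8.16, 8.73 and 8.98 in WT and 8.74, 9.45 and 9.27 in me, a difference of 0.77 ± 0.13. Ifit1, a binder of viral RNA, stood at 7.43, 7.52, 7.42 and 7.59 in WT and at 8.18, 7.70 and 8.82 in me, while he 2 reached 10.63. All me arrays lay above all WT arrays, but the difference of 0.76 ± 0.66 was close to its standard error, and it was 0.45 without me 3 and 1.24 without me 2.

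Jchain and Ighm, transcripts of antibody-producing cells, had the greatest positive differences of the 18193 genes. Jchain, the joining chain of polymeric antibodies, stood at 7.06, 7.10, 7.11 and 7.03 in WT and 9.82, 7.96 and 10.14 in me. All me arrays lay above all WT arrays, the he arrays lay at 7.04 to 7.21, and the difference was 2.13 ± 0.36, with 2.90 within set A and 0.89 within set B. Ighm, the heavy chain of IgM, had log2 values of 11.42, 11.42, 10.65 and 11.22 in WT and 13.01, 11.77 and 13.56 in me, a difference of 1.48 ± 0.26, and Igkv8-30, a kappa light chain segment, differed by 0.95 ± 0.19. Of 11 plasma cell markers 4 were separated higher (36.4%, against 4.82%) and 1 lower, with a mean level of 8.40 to 8.57 over the WT arrays and 8.61 to 9.15 over the me arrays. The list's median of 0.02 turned to -0.03 with median centring and also lay below 0 without normalisation. The share of these transcripts that came from other cells was not tested.

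Other cell type markers were also higher in part. Of 11 B cell markers 5 were separated higher (45.5%, against 4.82% of all genes) and 0 lower (against 7.65%), with Ms4a1 (CD20) at 0.52 ± 0.10, Spib at 0.34 ± 0.09 and Fcmr, the IgM receptor, at 0.31 ± 0.11, and the mean level was 7.53 to 7.78 in WT and 7.66 to 7.86 in me. Only 3 of the 11 lay at or above the median level. Of 13 neutrophil markers 6 were separated higher (46.2%, against the same 4.82%) and 0 lower. S100a8 stood at 7.20, 7.26, 7.23 and 7.25 in WT and 7.43, 7.87 and 8.10 in me, and S100a9 differed by 0.42 ± 0.11. A single neutrophil marker lay at or above the median level, and the list's mean level was 7.47 to 7.57 in WT and 7.52 to 7.77 in me. Among 13 markers of CD8 T and natural killer cells 3 were separated higher (23.1%) and 0 lower, with Eomes, a transcription factor of these cells, at 0.38 ± 0.08 and a second probe set at 0.63 ± 0.16.

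Myeloid markers were less uniform. Of 18 markers of monocytes, macrophages and dendritic cells 2 were separated higher (11.1%, against 4.82% of all genes) and 1 lower (5.56%, against 7.65%). Their median was 0.01. Ly86, a partner of a Toll-like receptor homologue, differed by 0.37 ± 0.07, and Lyz2, lysozyme, stood at 7.53, 7.44, 8.42 and 8.46 in WT and 7.37, 9.42 and 8.32 in me. Its highest value came from me 2 and its lowest from me 1, so it was not separated. Mcpt8, a protease of basophils, differed by 0.33 ± 0.09. Its list of 15 mast cell, basophil and eosinophil markers had 1 separated higher (6.67%, against 4.82%) and 1 lower (6.67%, against 7.65%). The part of other cell types in the differences above was not tested.

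Prox1 and Prss2 show what the placing of me 3 does. Prox1, a transcription factor of lymphatic endothelium, had log2 values of 7.23 and 7.37 in WT of set A and 12.16 and 11.85 in WT of set B, with 7.39 and 9.09 in me of set A and 12.56 in me of set B. The set, not the genotype, made most of this range, and the difference of 0.81 ± 0.37 was -0.70 with me 3 counted in set B and 0.33 without me 3. Prss2, a pancreatic trypsin, differed by 0.35 ± 0.07 and by -0.06 with me 3 in set B. Of 14 pancreas markers 3 were separated higher (21.4%, against 4.82% of all genes) and 0 lower (against 7.65%). Of 18 endothelial markers 2 were higher (11.1%) and 1 lower (5.56%).

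**Figure D4:**
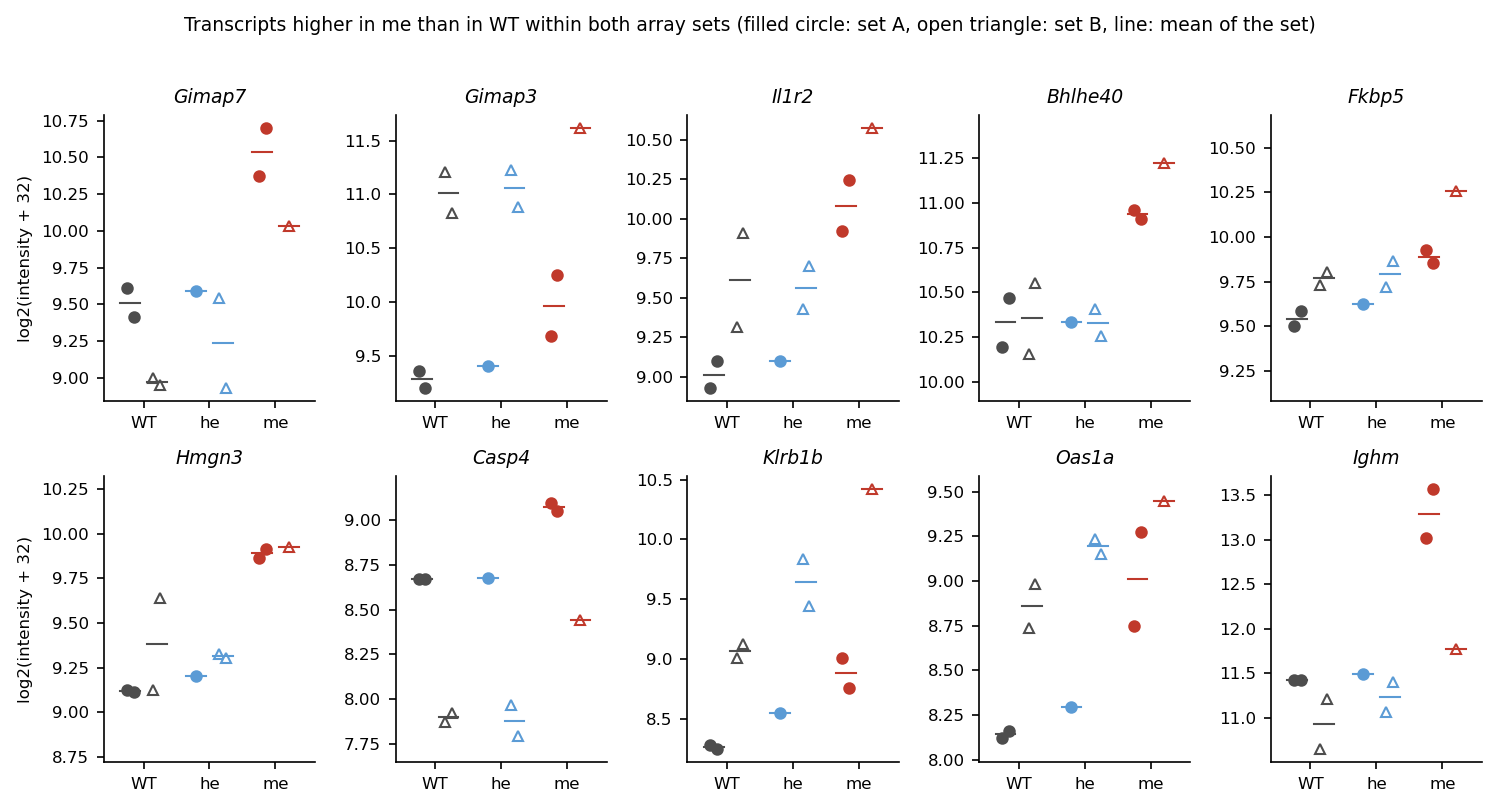
Log2(intensity + 32), quantile normalised, of 10 transcripts on each array, by genotype, with filled circles for set A, open triangles for set B and lines for the mean of a genotype within a set. For Gimap7 and Bhlhe40 all me arrays lie above all WT arrays, while for Casp4, Klrb1b and Gimap3 they do so only within each set.

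Of 24 translation initiation and elongation factors 5 were separated lower (20.8%, against 7.65% of all genes) and 2 higher (8.33%, against 4.82%), and 13 had a difference above 0. Eif4g2 stood at 12.22, 12.18, 12.25 and 12.09 in WT and at 12.01, 11.96 and 11.99 in me, with a difference of -0.21 ± 0.05. Eif4a1, the helicase of the cap complex, differed by -0.34 ± 0.10 and Eef1d, an elongation factor subunit, by -0.24 ± 0.08. The median was 0.01, and -0.23 without normalisation and -0.25 with median centring, where the median of all genes was -0.0071 and -0.03. Atf4, the transcription factor of the amino acid response, differed by -0.36 ± 0.12, Psat1, of serine synthesis, by -0.34 ± 0.12 and Slc7a5, an amino acid carrier, by -0.20 ± 0.09. All 3 were separated, and of the 22 genes of that list 4 were lower (18.2%) and 0 higher. For Psat1, Slc7a5 and Eif4a1 me 3 lay above WT 3, so with me 3 counted in set B they are not separated. Among 19 aminoacyl-tRNA synthetases 2 were lower (10.5%, close to the 7.65% of all genes) and 0 higher, with a median of -0.06 and Iars at -0.25 ± 0.09.

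In DNA repair and chromatin the shares of separated genes were close to the background. Of 36 repair genes 3 were separated lower (8.33%, against 7.65%) and 0 higher, with Parp1 at -0.20 ± 0.05 and Ung, which removes uracil from DNA, at -0.35 ± 0.11. Of 37 chromatin and DNA methylation enzymes 3 were lower (8.11%) and 1 higher (2.7%). Hdac1 differed by -0.28 ± 0.09, but its me 3 value lay above WT 3 and WT 4. Of 30 splicing and hnRNP genes 3 were lower (10%) and 0 higher, with Hnrnpf at -0.25 ± 0.06 and Hnrnpk at -0.14 ± 0.04. A second probe set of Hnrnpf was also separated lower, at -0.27 ± 0.05, while its others differed by 0.06 ± 0.09 and 0.04 ± 0.09. Dlat, of pyruvate dehydrogenase, differed by -0.29 ± 0.06 and Sema4a, a semaphorin that binds neuropilin, by -0.53 ± 0.12, and neither was separated with me 3 counted in set B.

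**Figure D5:**
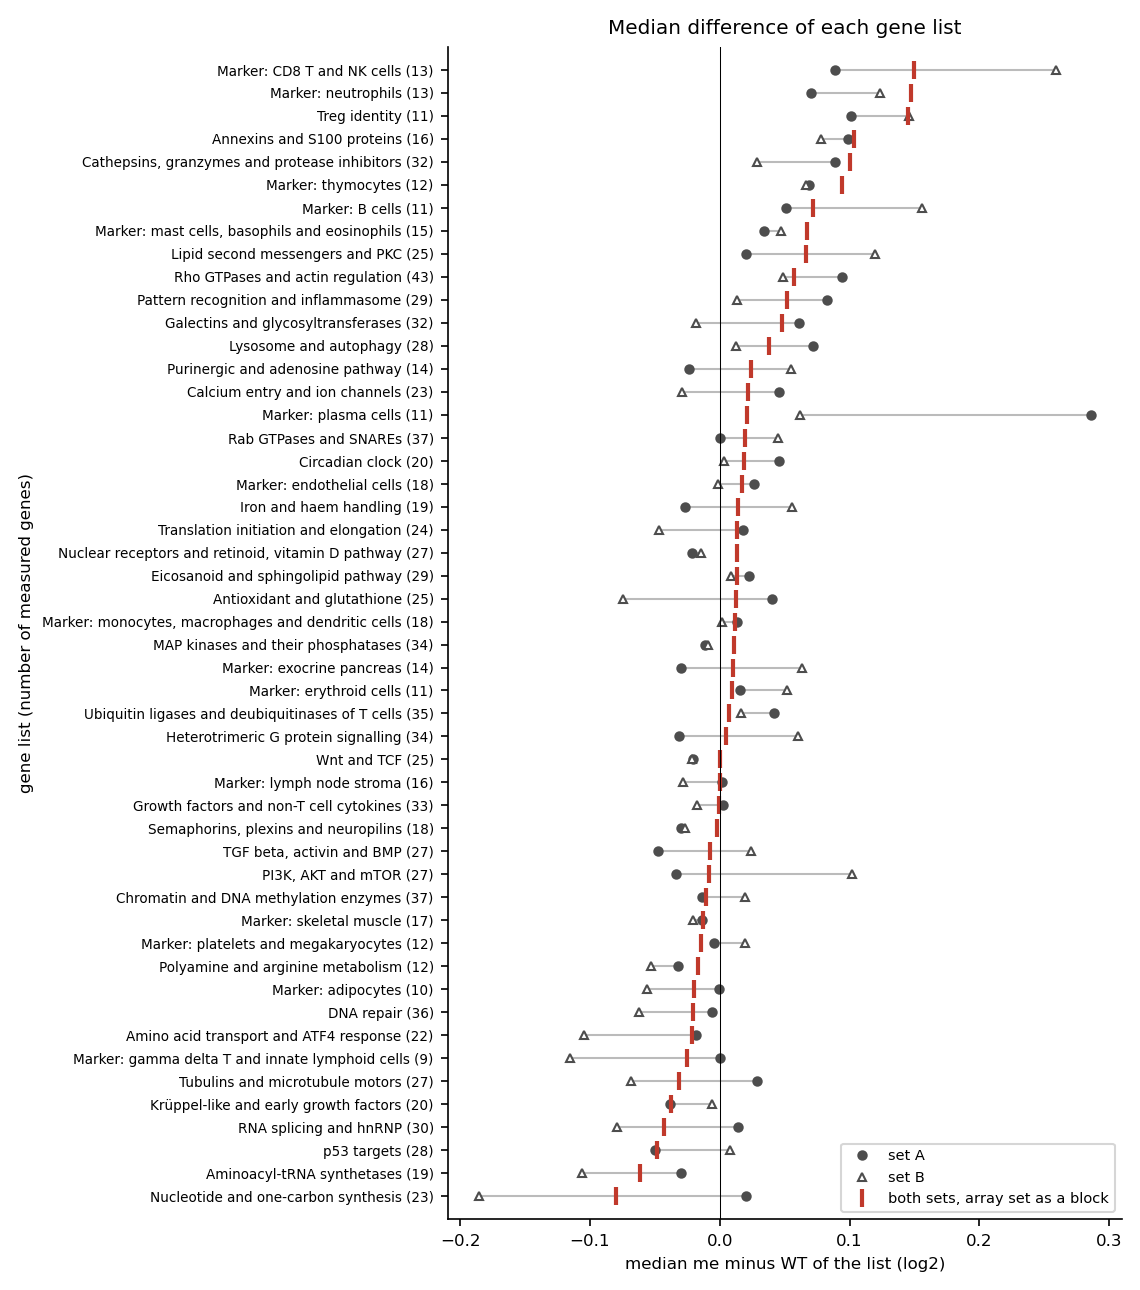
Median me minus WT difference (x axis, log2) of each of the 50 gene lists, with the number of measured genes in parentheses; red bars are the blocked fit, filled circles set A and open triangles set B. The medians run from -0.08 for nucleotide and one-carbon synthesis to 0.15 for CD8 T and NK markers.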

How the data were processed

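Expression was measured on 10 Affymetrix arrays of amplified RNA. The authors deposited linear intensities, with 1 value for each probe set on each array, and how they were summarised and scaled is not given in the sources used here. They were taken as log2(intensity + 32) and quantile normalised, which understates the change of dim transcripts. The 64 control probe sets among 45101 were dropped, and platform annotation named 1 gene for 34945, several for 932 and none for 9160. A gene of the 18193 was read at its brightest probe set, and its other probe sets are given only for some genes. limma 3.58.1 (R 4.3.3) fitted all 10 arrays with genotype and array set (6 residual degrees of freedom), without the set (7) and with their interaction (4). P-values were adjusted by Benjamini-Hochberg over 45037 probe sets at a threshold of 0.05, and the code was tested on simulated data.

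Genes were named by rule: Ptpn6, called genes, up to 15 separated genes a direction by smallest p, up to 10 by largest difference and up to 10 with at least 2 probe sets separated at a p under 0.01, all but the last at or above the median level, then up to 3 genes of each list or stem by p, and 6 Treg genes. The comparison, the array sets and the 50 gene lists (15 of them cell type markers) were chosen with earlier results of these data known. Number of arrays limits the precision. Alternatives covered the pseudocount, normalisation, low-value filter, blocks, array weights, the set of me 3 and each array left out.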

Additional observations from a re-analysis of the deposited data

Results flagged for a closer look

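For Hmgn3 the array WT 4 stood apart from the other WT arrays: its log2 value was 9.64 beside 9.13, 9.11 and 9.13, and the gap made up 0.971 of the group's range. For Nop56, a core protein of small nucleolar ribonucleoprotein particles, WT 4 was the low one, at 10.64 beside 10.93, 10.93 and 10.95, with a gap of 0.930 of the range. Chance alone marks about 1 in 20 groups of this size. Without WT 4, Hmgn3 was the single gene called in the blocked fit.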

How the results depend on the processing

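The count of called probe sets in the blocked fit, 3, was 0 without normalisation between arrays, with median centring, with WT and me arrays only, with me 3 counted in set B, with array set and sex as blocks and at a threshold of 0.01. It was 6 with the filter on low values (Il17rb and both Ptpn6 probe sets added), 7 with array weights, 5 with the first principal component as covariate and 5 at a threshold of 0.1. Leaving out 1 array at a time gave 0 to 5. Without a set block, array weights gave 2 calls and leaving out 1 array gave 0 to 2. The count of genes separated higher, 876, was 529 with median centring, 466 with the filter on low values and 21 for at least 0.5 in each set. For genes separated lower, 1391, the filter gave 647 and the 0.5 limit 13. Leaving out 1 array gave 1281 to 1989 higher and 1822 to 2840 lower, where fewer arrays have to be separated; without me 2 there is no me array in set B and no value. The cause of the other changes was not tested.

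The labelled replicate numbers were shared by WT and me. The deviations of same-numbered arrays from their group means correlated at 0.90, -0.87 and -0.51. These signs follow the array sets, since WT 1 and me 1 share set A while the other pairs are split between the sets. The correlations therefore cannot tell whether the numbers pair the samples. With array set and replicate number as a replicate block 0 probe sets were called, and with the replicate block alone 0.

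With me 3 counted in set B the difference turned for Prss2 (-0.056), Prox1 (-0.70), Mrpl13 (0.013), Slc25a5 (-0.0689), Foxp3 (-0.0038) and Tnfrsf18 (0.0218). Slc25a5 also turned with no block (-0.007), without normalisation (-0.25) and with median centring (-0.27), and Ikzf2 with the latter settings (-0.0923 and -0.1135). Tnfrsf18 turned with no block (0.0078) and ran from -0.0555 without me 1 to 0.0451 without me 2, with 0.0128 without WT 3 and 0.0129 without me 3. Over all settings of the named genes, 15 values reversed, 1772 kept direction and side of the threshold, 26 lost the call and 2 gained one. The difference moved by over 1.5 times on leaving out 1 array for 25 of 121 named genes, Socs2 and Tesc not among them. Signal over background was not given for these arrays, so dim transcripts have no stated detection limit.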

Other observations

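Signalling genes outside the groups described above also held single separated members. Tgfbr3, the co-receptor betaglycan, differed by -0.47 and Skil, a repressor of TGF beta signals, by -0.42. Their list of 27 TGF beta, activin and BMP genes had 4 separated lower (14.8%, against 7.65% of all genes) and 0 higher (against 4.82%). Hlf, a clock-linked transcription factor, differed by -0.45, Wnt10a by -0.28 and Csf2, a cytokine of activated T cells, by -0.31. Plcg2, a phospholipase of antigen receptor signalling, differed by 0.43, or 0.20 without me 2, and Prkch by 0.27.

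By chromosome, the share of genes separated higher ran from 3.56% on chromosome 4 to 6.93% on chromosome 6, which holds Ptpn6 and the Gimap genes, and the share separated lower from 5.85% on chromosome 7 to 10.8% on chromosome 13. Of 1458 long noncoding RNAs 3.77% were separated higher and 7.06% lower, against 4.82% and 7.65% of all genes.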
